A study of Mus musculus with 6 samples.

Results

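The NRF2 pathway was followed in neural stem cells (NSCs) through 10 genes, namely Nfe2l2, Keap1, Hmox1, Nqo1, Gclc, Gclm, Txnrd1, Srxn1, Gsr and G6pdx. The genes were listed by name, with earlier results of these data known. All 10 were found by symbol among the 53110 genes of the deposited RNA-seq table. The cells were primary cortical NSCs of the mouse, adherent and grown in 21% O2. There were 3 samples labelled WT and 3 labelled Setd5+/-, the latter carrying a CRISPR-Cas9 mutation in 1 copy of Setd5, which codes for a SET domain protein. The column headers name all mutant samples after a single clone. They also carry 1 index and lane mark for all WT samples and another for all mutant samples. Genotype therefore cannot be told apart from index or lane. The samples of one genotype differed from each other by about as much as random sampling of reads counted in pairs would give. That both reads of a pair were counted was assumed and not checked. The samples were therefore taken as 1 library per genotype (n = 1 against n = 1) and are called its parts below. No spread between cultures or clones could therefore be measured, and each difference compares the reads of the WT library with those of the Setd5+/- library.

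NRF2, the product of Nfe2l2, is a cap'n'collar transcription factor. KEAP1 holds NRF2 in the cytoplasm and hands it to a CUL3 ubiquitin ligase for destruction, a step that is blocked when electrophiles or oxidants modify cysteines of KEAP1. NRF2 then enters the nucleus, pairs with a small MAF protein and binds antioxidant response elements of genes for glutathione synthesis, thioredoxin reduction, quinone and heme handling and NADPH supply. Much of the control of NRF2 is thus exerted on the protein, which RNA-seq does not measure.

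RefSeq promoters (GRCm38.p6, from 250 bases before to 50 bases after a start site) were at hand for 7 of the 10 genes, as 9 promoters of which 3 belong to Txnrd1. The core letters of the antioxidant response element, TGACNNNGC, were searched on both strands, where the other strand reads GCNNNGTCA. They occurred in 5 of the 9 promoters, or 55.6%, while 12.4% of all 32851 mouse promoters of the same length held them. Of the 124 promoters of genes in the lists of related genes described below, 15.3% did. The 5 matches are given with their flanks because they are the letters shared by genes whose transcripts are compared here. Each is written in the direction of transcription, with the match in capitals.
Nfe2l2: cagcccaccTGACTCCGCcatgccccg
Gclm: ctcccgggcGCACCGTCAactctcacg
Txnrd1: tggatttttGCTTTGTCAttctgacac
Srxn1: cagtgggcaGCTAGGTCAgagtgagac
G6pdx: ggcgggtcaGCTCAGTCAaagcacacg
The Nfe2l2 stretch is at chr2:75704886-75704912 (minus strand), with its match 240 bases before the start site. The Gclm stretch is at chr3:122245414-122245440 (plus strand), 134 bases before the start site, and like that of Nfe2l2 it lies upstream of the annotated gene. The Txnrd1 stretch is at chr10:82859105-82859131 (plus strand), 92 bases before 1 of the 3 start sites and in an intron of the longer transcripts. The Srxn1 stretch is at chr2:152105543-152105569 (plus strand), in an exon, 28 bases after the start site. The G6pdx stretch is at chrX:74428920-74428946 (minus strand), 57 bases before the RefSeq start site and in an exon of the GENCODE gene. None of the 5 matches overlapped TGACTCA or TGAGTCA, the letters of the AP-1 site. Apart from its match, however, the Srxn1 promoter held TGAGTCA upstream of the start site, also as TGAGTCAGC, which the searched letters do not cover. The promoters of Keap1 and Nqo1 and the other Txnrd1 promoters held no match in this window. A match is a description of letters and not of binding, which was not measured here.

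Of the 10 genes, 5 were lower and 1 was higher in the Setd5+/- library, and 4 did not pass the test. Differences were tested with limma on log2(normalized count + 1), at a Benjamini-Hochberg adjusted p of 0.05 over all 16266 genes whose mean normalized count was 10 or more. By the same rule 61.3% of all tested genes passed, 30.3% as higher and 30.9% as lower, and 69.8% passed among the 9158 tested genes whose mean level lay in the range of these 10. The share of 60.0% was therefore near that of genes in general. The differences were small. None of the 10 genes reached 1.5-fold in either direction, whereas 35.2% of all tested genes did, and 28.6% of those in the range. None reached 2-fold, against 16.4% of all tested genes and 10.8% of those in the range. The median log2 fold change of the 10 genes was -0.22, beside -0.02 over all tested genes and -0.04 over those in the range. The median size, regardless of direction, was 0.30, beside 0.40 over all tested genes and 0.34 over those in the range. The values of a gene did not overlap between the libraries in 5 of the 10 genes, beside 65.3% of all tested genes.

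**Figure D1:**
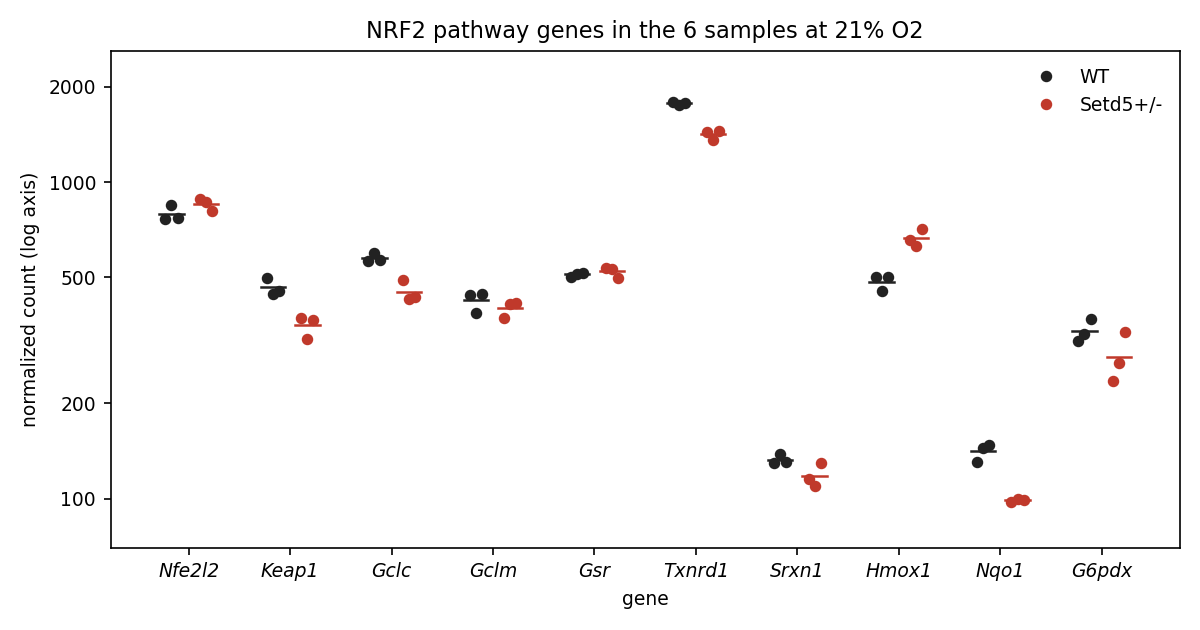
Normalized counts (log axis) of the 10 genes in the 3 parts of the WT library (black) and the 3 parts of the Setd5+/- library (red), with bars at the mean of the parts. The parts of Keap1, Gclc, Txnrd1 and Nqo1 are all lower and those of Hmox1 all higher in Setd5+/-, and the other 5 genes overlap.

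Of the regulators, Keap1 was lower in the Setd5+/- library, while Nfe2l2 did not pass the test. Nfe2l2 (chr2:75675513-75704641, minus strand; mm10 here and below) had normalized counts of 765, 847 and 770 in the WT parts and 886, 865 and 811 in the Setd5+/- parts. The ranges overlapped, since the second WT part exceeded the lowest Setd5+/- part. The log2 fold change was 0.10, with a 95% counting interval of -0.01 to 0.22 and a limma adjusted p of 0.115, so no difference in the transcript of NRF2 was detectable at this depth. It passed when the values were scaled to genes outside chromosome 1 (0.15, limma adjusted p = 0.0284) and when the second WT part was left out (0.15, limma adjusted p = 0.0425). Keap1 (chr9:21229730-21239361, minus strand), the inhibitor, had 499, 444 and 453 in WT and 372, 320 and 366 in Setd5+/-. All Setd5+/- parts were below all WT parts, and the mean fell by 24.2%, from 465 to 353, a log2 fold change of -0.40 (interval -0.56 to -0.24, limma adjusted p = 0.000115). The log2 fold change of Nfe2l2 exceeded that of Keap1 by 0.50 (interval 0.31 to 0.70). Per kilobase of exon, Nfe2l2 was 2.11 times Keap1 in WT (interval 1.94 to 2.29) and 2.99 times in Setd5+/- (interval 2.68 to 3.34). Exons of Keap1 share 510 bases with the antisense gene Gm16754 on the other strand, which had means of 99.1 and 77.4 normalized counts, and since the library kit (TruSeq RNA v2) does not mark strand, reads from the shared bases cannot be told apart.

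Glutathione synthesis starts with glutamate-cysteine ligase, the rate-limiting enzyme, which is built from the catalytic subunit GCLC and the modifier subunit GCLM. Gclc (chr9:77754535-77794485, plus strand) had 563, 599 and 569 normalized counts in WT and 490, 428 and 434 in Setd5+/-. The libraries did not overlap, and the mean fell from 577 to 450, a log2 fold change of -0.36 (interval -0.50 to -0.21, limma adjusted p = 8.79e-05). Gclm (chr3:122245557-122270732, plus strand) had 441, 387 and 444 in WT and 373, 412 and 416 in Setd5+/-, which overlapped. Its log2 fold change of -0.08 did not pass the test (interval -0.24 to 0.08, limma adjusted p = 0.388). The transcripts of the subunits thus differed in their fold change between the libraries. The log2 fold change of Gclc minus that of Gclm was -0.27 (interval -0.49 to -0.06). Per kilobase, Gclc stood at 2.27 times Gclm in WT (interval 2.07 to 2.49) and at 1.88 times in Setd5+/- (interval 1.67 to 2.11).

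Glutathione reductase, coded by Gsr (chr8:33652523-33698163, plus strand), returns oxidised glutathione to its reduced form with NADPH. Gsr had 503, 515 and 517 normalized counts in WT and 535, 532 and 499 in Setd5+/-. The highest and the lowest of the 6 values were both of Setd5+/-, and the log2 fold change was 0.03 (interval -0.11 to 0.17, limma adjusted p = 0.729). Its sign turned under other scalings of the libraries, to -0.01 by the upper quartile and by total reads. Compared with Gclc, the log2 fold change of Gsr was higher by 0.39 (interval 0.18 to 0.59).

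In the thioredoxin branch, TXNRD1 is the cytosolic reductase that recharges thioredoxin with NADPH. Txnrd1 (chr10:82833951-82897712, plus strand) had 1795, 1755 and 1776 normalized counts in WT and 1445, 1355 and 1456 in Setd5+/-. It was the most deeply read of the 10 genes, with 6430 reads in WT and 3572 in Setd5+/-, and the libraries were far from overlapping. The mean fell by 20.1%, a log2 fold change of -0.32 (interval -0.41 to -0.24, limma adjusted p = 6.88e-08). Sulfiredoxin, coded by Srxn1 (chr2:152105516-152111376, plus strand), repairs over-oxidised peroxiredoxins. Srxn1 had 129, 138 and 131 in WT and 116, 110 and 130 in Setd5+/-, where 1 Setd5+/- part reached into the WT range. The log2 fold change of -0.16 did not pass the test (interval -0.45 to 0.12, limma adjusted p = 0.296), and with 298 reads in Setd5+/- its interval was wide enough to hold both no change and the fall seen for Txnrd1. Accordingly, the difference between the log2 fold changes of Txnrd1 and Srxn1 was -0.16 with an interval of -0.46 to 0.14.

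The stress-inducible enzymes of heme and quinone metabolism went in opposite directions. Heme oxygenase 1, coded by Hmox1 (chr8:75093621-75100589, plus strand), splits heme into biliverdin, iron and carbon monoxide. Hmox1 had 500, 453 and 504 normalized counts in WT and 658, 628 and 709 in Setd5+/-. Every Setd5+/- part was above every WT part, and Hmox1 was the only gene of the set that passed the test as higher in Setd5+/-. The mean rose from 485 to 665, or by 36.9% with a pseudocount of 1 added to each mean. This is a log2 fold change of 0.45 (interval 0.32 to 0.59, limma adjusted p = 2.03e-06). NQO1 reduces quinones without forming the semiquinone radical and is a standard readout of NRF2. Nqo1 (chr8:107388225-107403206, minus strand) had 131, 145 and 148 in WT and 97.7, 100.0 and 98.9 in Setd5+/-. With the pseudocount of 1 its mean fell by 29.8%, more than that of any other of the 10 genes. The log2 fold change was -0.51 (interval -0.81 to -0.21, limma adjusted p = 0.00245), with no overlap. However, it rested on 512 reads in WT and 249 in Setd5+/-, together the fewest of the set. The log2 fold changes of Hmox1 and Nqo1 differed by 0.96 (interval 0.63 to 1.29).

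Glucose-6-phosphate dehydrogenase, coded by G6pdx (chrX:74409483-74429194, minus strand), opens the pentose phosphate pathway and makes the NADPH that GSR and TXNRD1 consume. G6pdx had 315, 333 and 369 normalized counts in WT and 236, 269 and 336 in Setd5+/-. The Setd5+/- parts were spread widely and 1 of them lay above the middle of the WT values, so the libraries overlapped. The log2 fold change of -0.27 passed narrowly (interval -0.46 to -0.09, limma adjusted p = 0.0226). The call was lost without the third WT part (-0.21, limma adjusted p = 0.128), without the first Setd5+/- part (-0.16, limma adjusted p = 0.181) and without the second (-0.24, limma adjusted p = 0.0623), while without the third Setd5+/- part the log2 fold change was -0.42 (limma adjusted p = 0.00118). It was also lost with no filter on low values (limma adjusted p = 0.110) and with scaling to genes outside chromosome 1 (-0.23, limma adjusted p = 0.0508). Exons of G6pdx share 418 bases with Ikbkg on the other strand, and Ikbkg had means of 411 normalized counts in WT and 489 in Setd5+/-. The part of these reads in the G6pdx counts was not tested.

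**Figure D2:**
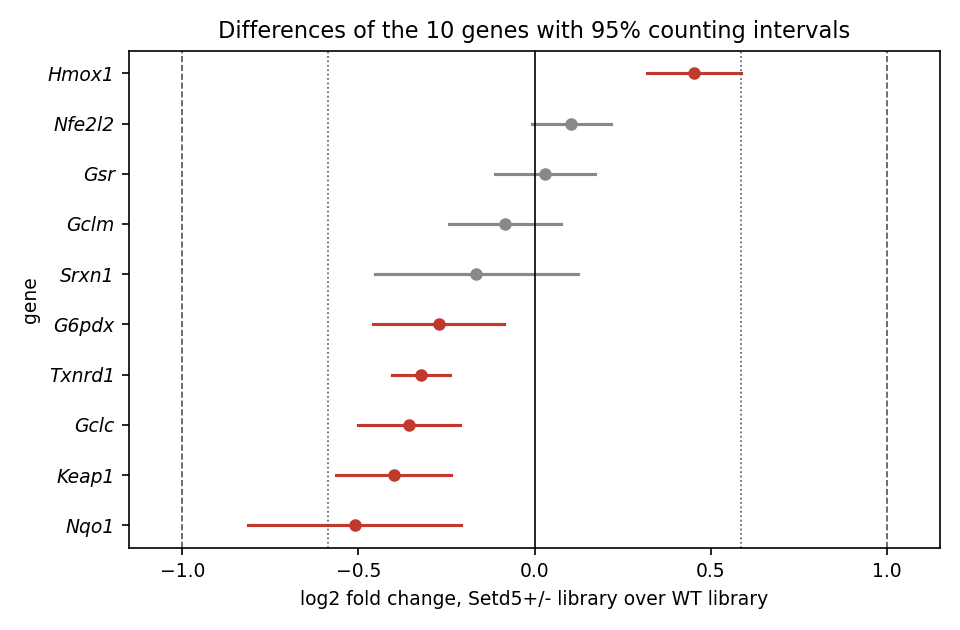
Log2 fold change (Setd5+/- library over WT library) of the 10 genes with 95% counting intervals, in red where the limma test was passed and in grey where not. Dotted lines mark 1.5-fold and dashed lines 2-fold in each direction, and no gene's estimate, from -0.51 for Nqo1 to 0.45 for Hmox1, reaches them.

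**Figure D3:**
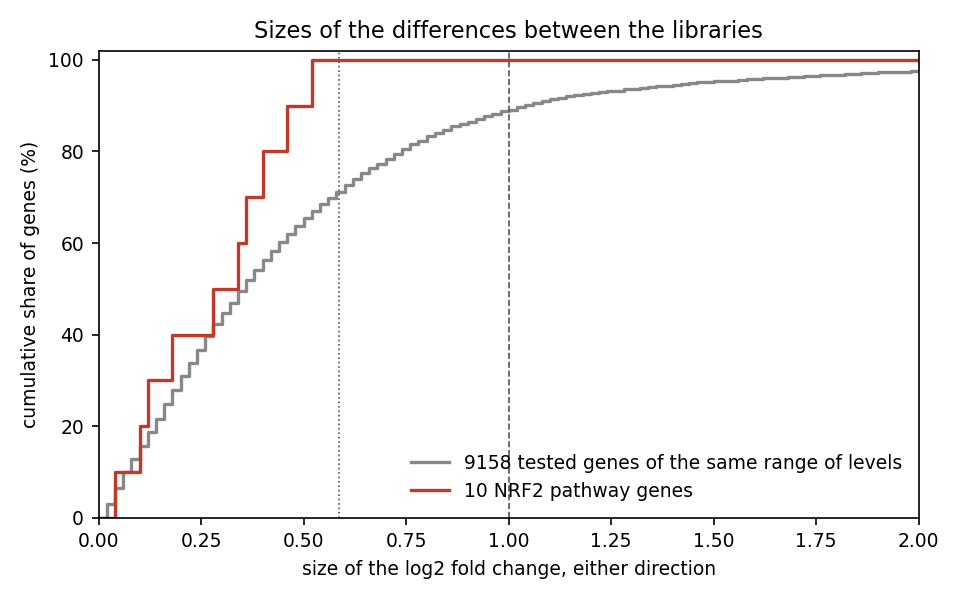
Cumulative share of genes (%) at or below each size of log2 fold change, for the 10 genes (red) and for the 9158 tested genes in the same range of mean levels (grey), with lines at 1.5-fold (dotted) and 2-fold (dashed). All 10 genes lie below 1.5-fold, while 28.6% of the genes in the range lie at or above it.

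Levels were compared between genes as normalized counts per kilobase of exon. In WT, Hmox1 stood highest at 277, followed by Txnrd1 at 251, Nfe2l2 at 209, Gsr at 186 and Gclc at 153. G6pdx at 110.0, Keap1 at 99.2 and Nqo1 at 91.0 followed, each with a counting interval that overlapped the next of these, and Gclm at 67.4 and Srxn1 at 47.1 closed the order. In Setd5+/-, Hmox1 stood at 380 and Nfe2l2 at 225, now above Txnrd1 at 200.2, whose interval overlapped that of Gsr at 190. Gclc was at 120 and G6pdx at 91.0, whose interval overlapped that of Keap1, and Srxn1 was again lowest at 42.0. Between them Keap1 at 75.1, Nqo1 at 63.7 and Gclm at 63.6 could not be ordered beyond counting error.

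Other genes of the pathway and of related metabolism were followed in 7 lists of 108 genes in all, of which 85 could be tested. Whether NRF2 controls the listed genes in these cells was not tested. There 29 were higher, 36 were lower and 20 did not pass, beside 30.3% higher and 30.9% lower over all tested genes, and the median log2 fold change was -0.12. At least 1.5-fold was reached by 46 of the 85, or 54.1%, beside 35.2% of all tested genes and none of the 10. Chromosome 1 stood apart in these libraries, with a median log2 fold change of 0.53 over its 1044 tested genes. It holds 12 of the 85 list genes and none of the 10. Among the 73 list genes on other chromosomes, 20 were higher and 35 lower, and 52.1% reached 1.5-fold.

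Among cap'n'collar factors and their control, 4 of 11 tested genes were higher and 5 lower (median -0.16). Nfe2l1, which codes for the NRF2 relative NRF1, rose from 2065 to 4670 normalized counts (log2 fold change 1.18), and Sqstm1, whose product p62 binds KEAP1, rose from 1199 to 1906 (0.67). The small MAF gene Maff fell from 38.6 to 6.35 (-2.43), and the repressor gene Bach2 fell from 209 to 74.3 (-1.48). Bach1, the BACH repressor of Hmox1, was named after its values were seen and did not pass, with 492 and 441 (-0.16, interval -0.31 to -0.01, limma adjusted p = 0.0605).

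Among genes of glutathione synthesis, import and use, 5 of 15 were higher and 7 lower (median -0.16), and it held the largest rise of any list. Slc7a11, the cystine importer that supplies cysteine to glutathione, rose from 99.7 to 1592 (log2 fold change 3.98). Chac1, which degrades glutathione, rose from 5.52 to 257.3 (5.31). Slc3a2, the heavy chain that partners SLC7A11, rose from 1084 to 6669 (2.62), and Gss, which completes glutathione after the ligase, fell from 201 to 136 (-0.56), both named after their values were seen. Ggt7, of the gamma-glutamyltransferase family, fell from 159 to 43.7 (-1.84), and the glutaredoxin gene Glrx fell from 347 to 144 (-1.27). Exons of Ggt7 share 197 bases with Acss2 on the other strand, which had 561 and 261. Of the glutathione S-transferases, 14 of 23 could be tested and 2 were higher and 7 lower (median -0.25). Gstm4 and Gsto2 had means below 10 and were not tested. Gstm4 went from 19.1 to 0 and Gsto2 from 3.87 to 11.9, both named after their values were seen. Mgst1 rose from 612 to 1150 (0.91), and Gsta3, on chromosome 1, rose from 8.29 to 21.0 (1.25). The call for Gsta3 was lost without the second part of either library (limma adjusted p = 0.0982 without that of WT and 0.0695 without that of Setd5+/-) and with no filter on low values (limma adjusted p = 0.0644). Gstt3 fell from 113 to 40.1 (-1.47) and Gstm7 from 279 to 131 (-1.08). Exons of Gstt3 share 524 bases with Gm20441 on the same strand, which had 222 and 122.

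In the thioredoxin system, 5 of 13 genes were higher and 7 lower (median -0.44). Txnip, the thioredoxin inhibitor, rose from 444 to 1212 (log2 fold change 1.45), and Txndc9, on chromosome 1, from 348 to 601 (0.79). The reads of Txndc9 may be shared with its near-identical copy Gm7868, which had 259 and 311. Txn1, the cytosolic thioredoxin that TXNRD1 serves, fell from 1287 to 493 (-1.38), but its processed copy Txn-ps1 took 8601 and 3465 normalized counts and the reads of the 2 cannot be told apart with certainty. Txnrd3 fell from 111 to 54.8. In NADPH supply, 4 of 12 genes were higher and 6 lower (median -0.15). Mthfd2, a mitochondrial enzyme of folate metabolism, rose from 132 to 775 (2.54) and H6pd, the dehydrogenase of the endoplasmic reticulum, from 40.9 to 108 (1.38). Mthfd1, the cytosolic folate enzyme, fell from 1203 to 472 (-1.35), and Pgd, which follows G6PDX in the pentose phosphate pathway, fell from 1212 to 797 (-0.60).

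Of heme, iron and quinone enzymes, 3 of 11 were higher and 2 lower (median -0.15). Ephx1, an epoxide hydrolase gene on chromosome 1, rose from 2231 to 5112 (2.29-fold) and the heme transporter gene Slc48a1 from 516 to 890 (log2 fold change 0.78). Cbr3, a carbonyl reductase gene, fell from 565 to 224 (-1.33), and the ferritin light chain gene Ftl1, which has near-identical copies, from 689 to 421 (-0.71). Phase II and efflux targets were the only list with a median above 0, with 6 of the 9 tested genes higher and 2 lower (median 1.35). Without the 3 genes on chromosome 1, 3 were higher and 2 lower (median 0.48). Aox1 rose from 50.8 to 339 (2.72) and Ugt1a7c, from 12.7 to 46.5 (1.79), both on chromosome 1. Ugt1a7c shares 2170 exon bases with Ugt1a6a, which was also counted as higher with nearly the same values (13.0 and 46.9), so these are not separate signals. Akr1b10 fell from 239 to 125 (-0.93), and Abcc5 by a small step from 2307 to 2155 (-0.10). The call for Abcc5 was lost without the third WT part (limma adjusted p = 0.166) or the second Setd5+/- part (limma adjusted p = 0.108), with no filter on low values (limma adjusted p = 0.0700) and with scaling to genes outside chromosome 1 (-0.06, limma adjusted p = 0.182).

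**Figure D4:**
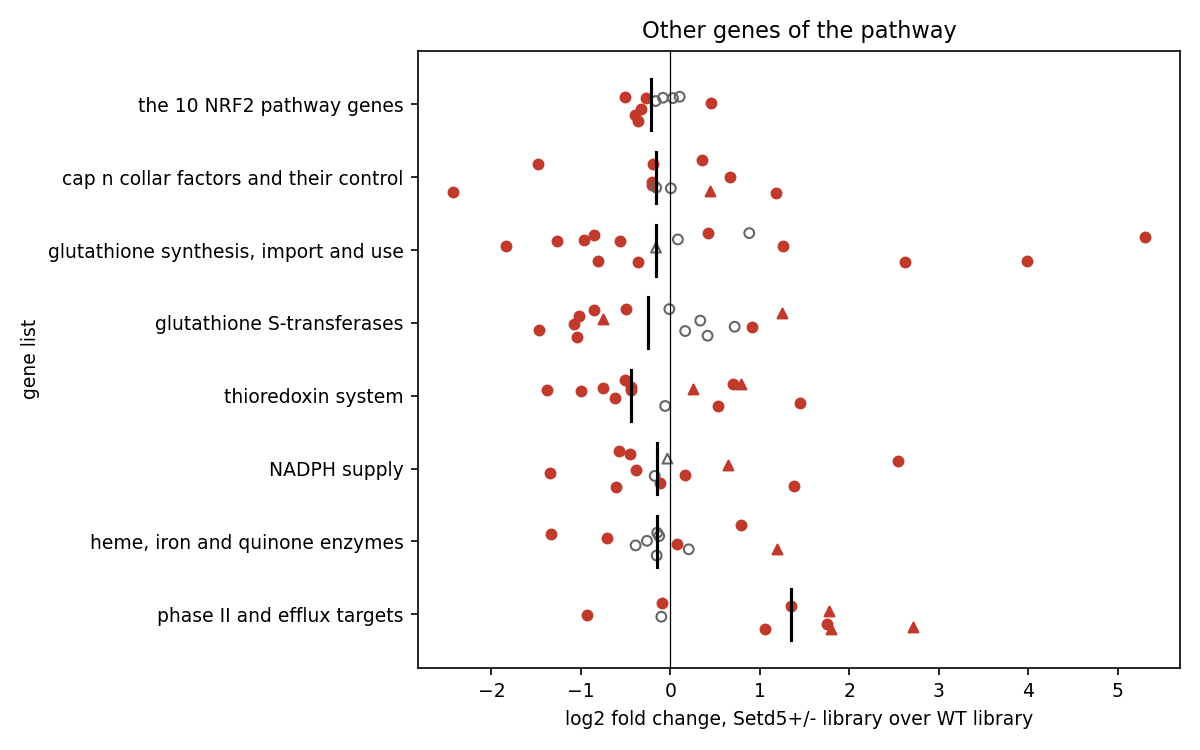
Log2 fold change (Setd5+/- library over WT library) of the tested genes of each list, filled red where the limma test was passed and open where not, with triangles for genes on chromosome 1 and a black bar at the list's median. The 10 genes span -0.51 to 0.45, while genes of glutathione synthesis, import and use reach 5.31 (Chac1) and -1.84 (Ggt7).

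The libraries held 30004634 reads on genes in WT and 21435546 in Setd5+/-, in parts of 9995980 to 10004948 and of 7143309 to 7146147 reads. The targeted gene Setd5 had 2498 to 2780 normalized counts in the WT parts and 1990 to 2151 in the Setd5+/- parts (log2 fold change -0.37, limma adjusted p = 3.13e-09). For G6pdx, the gene of the set on the X chromosome, the sex-linked genes were read as well, and Xist had 19901 to 20076 in WT and 25472 to 25971 in Setd5+/-, with Y-linked genes near 0 in both. Of 9 markers of neural stem cells all could be tested, 3 were higher and 5 lower, and their summed level was 74432 in WT and 54143 in Setd5+/-. Fabp7 alone went from 36015 to 11490, and the other 8 markers summed to 38417 and 42653. Summed over 5 astrocyte markers, the level was 6524 and 8704, most of it from Aldoc at 5730 and 7371, with Gfap at 17.1 and 263 and Aldh1l1 in the opposite direction at 380 and 147. Over 8 markers of the oligodendrocyte lineage it was 41369 and 23973, with Sox10 at 298 and 1.59. Over 6 neuronal markers it was 10471 and 12695, most of it from Map2 at 9983 and 12445. Dcx went in the opposite direction at 248 and 26.2, as did Tubb3 at 62.9 and 48.4 and Rbfox3 at 7.46 and 0. Of the 4 neuronal markers that could be tested, 1 was higher, 1 was lower and 2 did not pass. Microglia and macrophage markers summed to 134 and 73.9, with Ptprc, Cx3cr1 and Tyrobp at 0 in both, while 4 endothelial markers summed to 11.6 and 21.4 and 6 mesenchymal markers to 9.39 and 7.15. Their part in the differences of the 10 genes was not tested, and fewer cells of a type cannot be told apart from less RNA per cell.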

How the data were processed

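RNA-seq values of 6 samples were used. The authors trimmed reads with Trimmomatic, aligned them with Bowtie2 to mm10, counted them on genes and divided the counts by DESeq2 size factors. These normalized counts are the values that were deposited, and many had lost their decimal point. The points were restored so that each value was a whole number of reads and the deposited mean was met, in all 52438 genes with values. In simulated data, 100% of values were recovered. The columns of the authors' own comparison (fold change and p-values) were not used, nor were values at low oxygen.

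Within a genotype, the chi-square of reads per degree of freedom was 1.92 to 1.96, and between genotypes it was 63.4 to 63.9. The former is about that of reads counted in pairs, which was assumed and not checked. The 3 samples were therefore taken as parts of 1 library. Counting intervals (95%) allow for pairs and cover counting error only. The p-values compare the reads of the libraries, not genotypes. The log2 fold change is that of the means plus a pseudocount of 1 and understates the change of low genes. Tests used limma 3.58.1 (lmFit, eBayes with trend) in R 4.3.3 over 16266 genes (mean normalized count 10 or more). A simulation had 16298 tested genes. It recovered 17 of 46 genes changed by 0.3 on the log2 scale, 28 of 53 changed by 0.5 and 44 of 50 changed by 1. Beside them, 12 unchanged genes passed. Far fewer genes were changed there than passed in the data, so these shares do not measure the power of the comparison. Gene positions and exon lengths are from GENCODE M21, and near-identical transcripts (95% over 200 bases) were sought with blastn 2.17.0. Of the 108 list genes, 106 were found by symbol.

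The members, the lists and the tests were chosen with earlier results of these data known. In each pathway list, the 2 largest rises and the 2 largest falls among genes past the threshold were named, and other genes were named after their values were seen where so stated. Alternatives were other scalings, pseudocounts and filters on low values, a replicate block, a 2-fold rule and the omission of each part.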

Additional observations from a re-analysis of the deposited data

How the results depend on the processing

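Across 13 alternative analyses, 121 of the 130 values of single member genes kept their direction and their side of the threshold. The number of member genes higher in Setd5+/- became 2 with scaling to genes outside chromosome 1, where Nfe2l2 passed as well, and ranged from 1 to 2 when single parts were left out (2 without the second WT part). The number lower ranged from 4 to 5 over the same omissions, where G6pdx was lost, and the median log2 fold change of the 10 genes from -0.28 to -0.16. With at least 2-fold required besides the threshold, 0 were higher and 0 lower. The log2 fold change of Gsr turned to -0.0087 with upper quartile scaling and to -0.0096 with total reads, both far from the threshold. Over the lists, 27 to 29 genes were higher and 34 to 37 lower with single parts left out. Under upper quartile and total reads scaling 28 were higher and 42 lower, and with scaling to genes outside chromosome 1 there were 32 of each. Samples with the same number did not deviate together (correlations of -0.03 to -0.0014), so they shared only a number. With the replicate block, 9946 genes passed instead of 9963, with 29 list genes higher and 37 lower, and the block changed no call of the 10 genes. Depth limits Srxn1 and Nqo1 most, and no setting can supply the missing spread between cultures.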
